A study of Mus musculus with 4 samples.

Results

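Thyrotropin-releasing hormone (TRH) is a tripeptide made from a precursor, the product of Trh, and the genes described here are that precursor, the enzymes that process it, the enzyme that degrades the hormone and a receptor for it. The 9 genes, Trh, Pcsk1, Pcsk2, Furin, Cpe, Pam, Qpct, Trhde and Trhr, were taken by symbol from the 29267 genes listed per library, and all 9 were found. They were chosen by role, with the higher level of Trh in c-Jun-/- cells already known, so their genotype differences are given as descriptions, with no p-value. RNA was sequenced from 4 libraries of mouse induced epiblast stem cells (iEpiSCs). There were 2 c-Jun-/- libraries and 2 wild-type ones, both pairs with replicate numbers 2 and 3. All cells were converted from embryonic stem cells, grown before that in 2i and LIF, by medium with 20 ng/ml Activin A, 20 ng/ml bFGF, 2 µM XAV939 and 2.5 µM IWR-1, the last 2 being inhibitors of canonical Wnt signalling, and the iEpiSCs were then kept as epiblast stem cells. Nothing in the labels tells if replicates came from separate cultures or if each genotype is 1 clone, so the spread between libraries may be technical, and genotype cannot be told apart from cell line.

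Peptide hormones are cut out of larger precursors in the secretory pathway. Proprotein convertases cleave the precursor after pairs of basic residues, carboxypeptidase E trims the basic residues left at the end, and peptidylglycine alpha-amidating monooxygenase turns a terminal glycine into an amide. Glutaminyl cyclase closes the first glutamine of TRH into a ring, which shields the peptide from most aminopeptidases. TRH is best known as the hypothalamic hormone that drives release of thyrotropin.

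The coding sequence of Trh shows what the processing enzymes act on. Trh (ENSMUSG00000005892, protein-coding, minus strand, chr6:92242061-92244650, GRCm38) has 1 listed transcript of 1384 bases in 3 exons, of which 771 bases are coding sequence. Translated by codon, the GENCODE M21 coding sequence holds 5 copies of the hormone's unit, the codons for glutamine, histidine, proline and glycine between 2 pairs of basic codons. All 5 lie in the coding part of exon 3. They are shown because they are the cleavage and amidation substrate of the enzymes below, with the 4 hormone codons in capitals and the flanking basic codons in lower case, read 5′ to 3′ on the minus strand.
Repeat 1: aaacgcCAGCATCCGGGCaaaagg
Repeat 2: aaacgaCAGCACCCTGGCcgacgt
Repeat 3: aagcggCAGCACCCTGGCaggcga
Repeat 4: aagaggCAGCATCCAGGCcggagg
Repeat 5: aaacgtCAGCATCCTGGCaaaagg
The repeats lie at chr6:92243088-92243111, chr6:92242992-92243015, chr6:92242857-92242880, chr6:92242803-92242826 and chr6:92242710-92242733 (GRCm38), beginning at codons 75, 107, 152, 170 and 201 of 256. No 2 of the 24-base stretches were identical, and the capitals took 4 different spellings of the same 4 residues. Among 21877 protein-coding genes of the same annotation, searched in the same way, Trh was the 1 gene with any such unit.

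The libraries held 6341342 and 4666559 expected counts in c-Jun-/- and 5027635 and 5339937 in wild type, so that 3 counts, the limit a count of 0 allows, lay between 0.473 and 0.643 CPM (counts per 1000000 of a library). Jun itself had 17.3 and 17.2 TPM (transcripts per 1000000, a level per transcript length) in c-Jun-/- and 65.3 and 73.3 TPM in wild type. Jun is overlapped by Junos on the opposite strand, from which it cannot be fully told apart without strand. Which stretch of Jun was deleted was not stated in these sources. All 8 markers of the primed epiblast list were detected in every library, but their levels differed: 1 rose and 5 fell in c-Jun-/-, as given with the other markers further on. Fitted over all genes, 12598 passed the filter on low counts, 1034 were higher and 922 lower in c-Jun-/- (edgeR quasi-likelihood test, adjusted p under 0.05), and 651 were higher and 916 lower once the median of chromosome 8 was subtracted from its genes. Tested genes on chromosome 8 had a median log2 fold change of 0.51, against 0.0015 over all tested genes, which bears on the genes named below as lying there. Fold changes are log2 ratios of c-Jun-/- over wild type on the count scale with n = 2 per genotype, ± gives their standard error unless SD is named, and levels of different genes are compared as TPM.

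**Figure D1:**
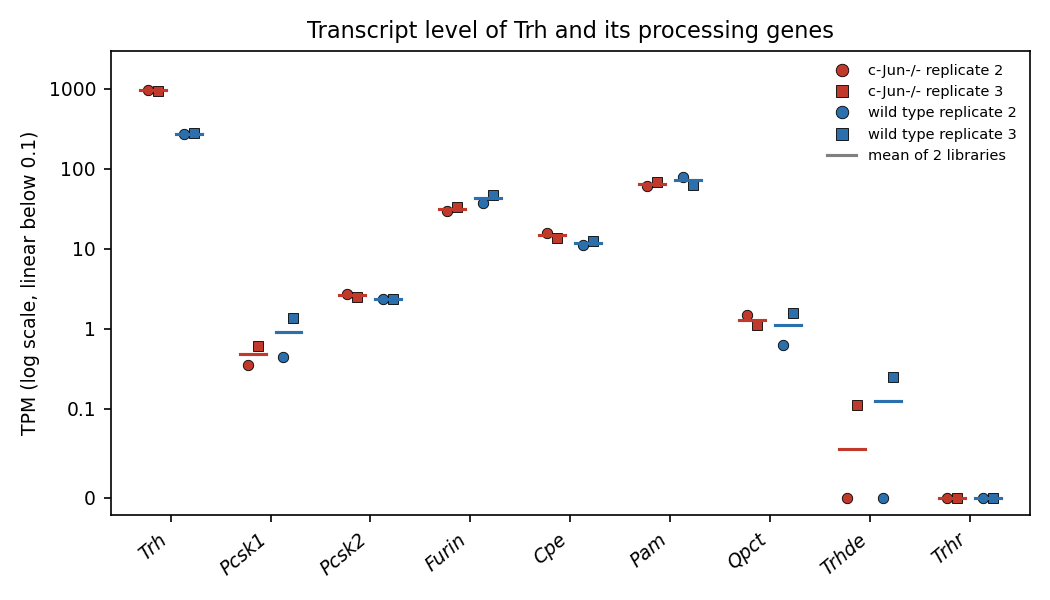
Level of the 9 genes in each library, in TPM on an axis that is logarithmic above 0.1 and linear below, with c-Jun-/- libraries left of wild-type libraries, circles for replicate 2, squares for replicate 3 and a bar for the mean of 2 libraries. Trh stands at 975 and 950 TPM in c-Jun-/- and 270 and 280 TPM in wild type, above every other gene shown in all 4 libraries, and Trhr is at 0.

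Trh was a highly expressed gene of these cells and the member with the largest difference between genotypes. It had 975 and 950 TPM in c-Jun-/- cells and 270 and 280 TPM in wild-type cells. The libraries of each genotype lay close together and far from those of the other. In expected counts these were 4019 and 2961 in c-Jun-/- and 877 and 978 in wild type. Scaled to library size, Trh averaged 641 ± 4.68 CPM in c-Jun-/- and 178 ± 6.37 CPM in wild type (SD, n = 2 each), a log2 fold change of 1.85 ± 0.06 or a level higher by a factor of 3.599. The difference between genotypes, 463 CPM, was many times the spread between libraries of either. By TPM, Trh ranked 99 and 105 among all listed genes in c-Jun-/- cells and 595 and 544 in wild-type cells. Of the 187 tested genes with a mean TPM as high as its own or higher, Trh itself included, none had a larger log2 fold change. The 127 tested genes with a larger log2 fold change all had lower levels, the highest a mean of 108 TPM. The mean of Trh over all libraries, 619 TPM, is itself raised by its level in c-Jun-/-. These ranks are a description, as Trh was chosen with its higher level in c-Jun-/- cells known.

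No tested neighbour of Trh was called. Tested genes whose start lay within 250 kb of the start of Trh were Nr2c2, Rbsn and Mrps25. Nr2c2, a nuclear receptor, stood at 0.16 ± 0.14, Rbsn, an endosomal trafficking gene, at 0.09 ± 0.13 and Mrps25, a mitochondrial ribosomal protein gene, at -0.10 ± 0.12 (edgeR adjusted p = 0.507, 0.707 and 0.622). Among the genes listed per library, none with a known position overlaps Trh itself, on either strand.

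The window before the Trh start was searched for letters that AP-1 and related bZIP factors are known to bind, since AP-1 is the factor of which c-Jun is a subunit. The 250 bases before the RefSeq start are shown, at chr6:92244651-92244900 on the minus strand (GRCm38.p6), with the 1 match in capitals.
Trh promoter: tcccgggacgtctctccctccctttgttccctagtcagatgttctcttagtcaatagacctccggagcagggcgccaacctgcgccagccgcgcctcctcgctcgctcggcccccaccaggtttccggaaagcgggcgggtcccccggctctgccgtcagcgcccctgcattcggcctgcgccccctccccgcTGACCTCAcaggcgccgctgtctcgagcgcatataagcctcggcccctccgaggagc
Windows ran from 250 bases before to 50 after a start, both strands were read, and 6 of the 9 genes matched a window in the RefSeq table, with 8 windows in all. The AP-1 letters TGANTCA were in none of these 8 windows and in 7.81% of 32851 windows of all genes. The cyclic AMP response element TGACGTCA was in the window of Pcsk1 and in 1.79% of all windows. The related letters TGACCTCA began 57 bases before the start of Trh and were in 2.17% of all windows. In human and rat this element of the TRH promoter is known as a binding site of thyroid hormone receptors and of CREB. A match of letters shows no binding, and a missing match says nothing of the factor.

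The convertases known from neuroendocrine cells were low in both genotypes. Pcsk1, which encodes PC1/3 and makes the first cuts in the TRH precursor, had 3 and 4 expected counts in c-Jun-/- and 3 and 10 in wild type. Pcsk2, which encodes PC2 and makes later cuts, had 2.71 and 2.51 TPM in c-Jun-/- and 2.35 and 2.39 TPM in wild type. Its libraries did not overlap in level, but its log2 fold change of 0.19 ± 0.37 was smaller than its standard error. Pcsk2 is overlapped by the antisense genes Pcsk2os1 and Pcsk2os2, from which it cannot be told apart without strand.

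Furin, the broadly expressed convertase of the trans-Golgi network, was the leading convertase among the 9 and was lower in c-Jun-/-. It had 62.6 and 65.5 CPM in c-Jun-/- and 84.4 and 108 CPM in wild type, and 29.9 and 33.8 TPM in c-Jun-/- and 37.7 and 47.8 TPM in wild type. Both c-Jun-/- libraries lay below both wild-type libraries on either scale. The count-scale log2 fold change was -0.59 ± 0.12. It rested in part on wild-type replicate 3, the highest library, without which it was -0.40. With limma on log2(TPM + 1) it was -0.41.

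The trimming enzyme gene Cpe and the amidation gene Pam were expressed in both genotypes. Cpe had 15.8 and 13.7 TPM in c-Jun-/- and 11.2 and 12.4 TPM in wild type, with c-Jun-/- above wild type in every library. Its log2 fold change of 0.37 ± 0.24 was below the chromosome 8 median, where it lies, and stood at -0.15 with that chromosome centred. Pam had 61.9 and 68.6 TPM in c-Jun-/- and 79.9 and 63.4 TPM in wild type, and the genotypes overlapped. In CPM Pam averaged 110.3 ± 0.832 in c-Jun-/- and 110.8 ± 12.8 in wild type (SD, n = 2 each), a log2 fold change of -0.005 ± 0.096.

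The ring-closing, degrading and receptor genes were at or near the detection limit. Qpct, which encodes glutaminyl cyclase, had 9 and 5 expected counts in c-Jun-/- and 3 and 8 in wild type, and the genotypes overlapped. Trhde, which encodes the membrane enzyme that removes the ring-closed residue of TRH, had 0 and 1 counts in c-Jun-/- and 0 and 1 in wild type. Trhr, the G protein-coupled receptor of TRH, had 0 counts in all 4 libraries, which allows up to the 0.473 to 0.643 CPM given above. Pcsk1, Qpct, Trhde and Trhr did not pass the filter on low counts. At this depth only a large difference between genotypes could have shown in them.

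Of the 9 genes, 5 passed the filter on low counts, and by the fit over all genes 1 (Trh) was called higher, 1 (Furin) lower and 3 neither. The call of Furin was lost with limma on log2 TPM, which changes both test and scale. Over all tested genes 15.5% were called, 8.21% higher and 7.32% lower. The CPM of the genotypes did not overlap for Trh, Furin, Cpe and Pcsk2, and did not overlap for 53.9% of all tested genes. The choice of members used this contrast, so nothing is read from these counts. Within a genotype the order of TPM levels was the same in both, Trh first, then Pam, Furin, Cpe, Pcsk2, Qpct, Pcsk1, Trhde and Trhr. Neighbours whose libraries overlapped were Trhde and Trhr in c-Jun-/-, and Qpct with Pcsk1 and Trhde with Trhr in wild type.

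**Figure D2:**
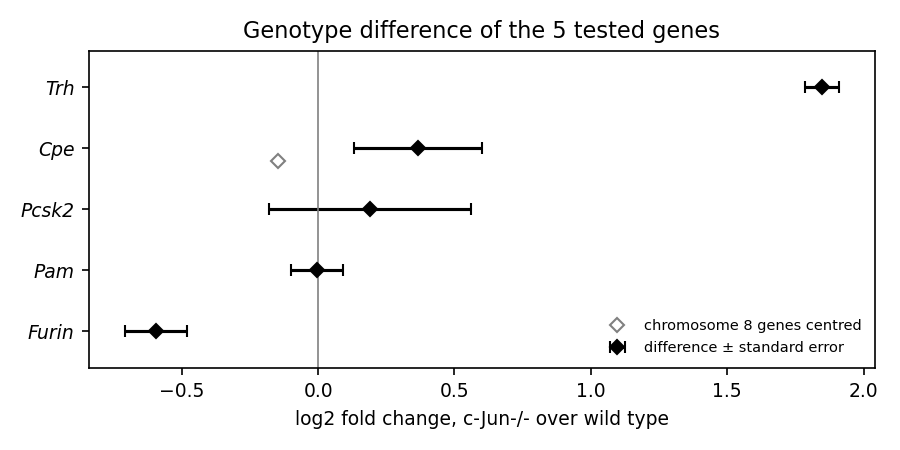
Log2 fold change of c-Jun-/- over wild type for the 5 genes that passed the low count filter, with bars of 1 standard error and n = 2 per genotype. Trh stands at 1.85 and Furin at -0.59, while the open diamond puts Cpe, on chromosome 8, at -0.15 once that chromosome is centred.

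A readout that the choice of genes did not use was the transcript length RSEM gives per gene, an average over a gene's transcripts weighted by their estimated abundance. For Furin it was 3964 and 3578 bases in c-Jun-/- and 4307.5 and 4315 bases in wild type. The c-Jun-/- libraries were both shorter, but their own spread (SD 273 bases) was far larger than that of wild type (SD 5.52 bases). Lengths did not overlap between genotypes in 29.7% of the 9033 tested genes with more than 1 transcript, and 18.1% of those genes differed by as much as Furin or more. The 7 listed Furin transcripts run from 339 to 5736 bases in GENCODE M21, and the 3 coding ones with 16 exons from 4166 to 4332 bases. A shorter length raises TPM for the same count, and Furin differed less between genotypes in TPM (log2 ratio of means -0.42) than in counts (-0.59). Pam, with 15 listed transcripts, had lengths of 3386 and 3021 bases in c-Jun-/- and 2952 and 3109 bases in wild type, which overlapped. Trh, Cpe and Qpct have 1 transcript each and no such variation. With 2 libraries against 2 no permutation test can pass 0.05, and none was run on these lengths.

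**Figure D3:**
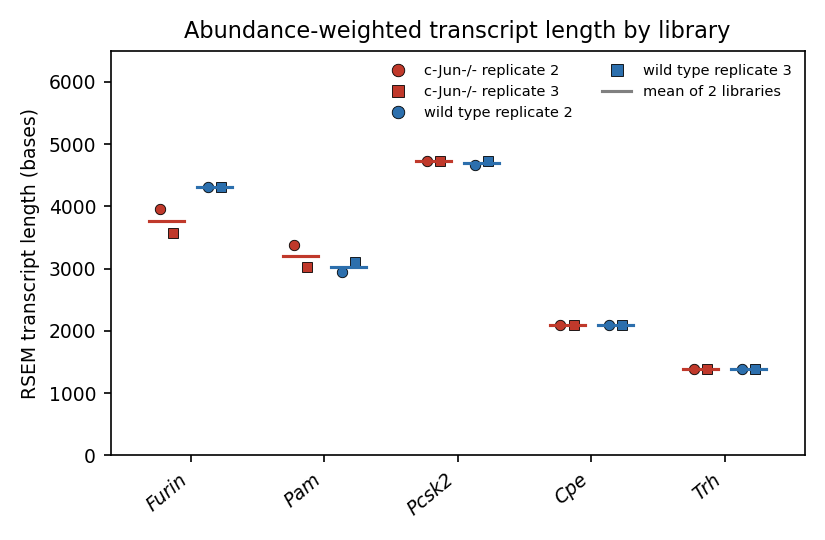
RSEM transcript length in bases of the 5 tested genes by library, c-Jun-/- left of wild type, with circles for replicate 2, squares for replicate 3 and a bar for the mean. Furin is shorter in both c-Jun-/- libraries (3964 and 3578 bases, against 4307.5 and 4315 bases in wild type), Pam overlaps, and Trh and Cpe are fixed by their single transcript.

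Among the other convertases and their partners, 4 genes were tested, 1 rose and 1 fell, and the median log2 fold change was 0.30. Over all tested genes 15.5% were called and the median was 0.0015, which holds as the background for each list that follows. Pcsk1n, which encodes proSAAS, an inhibitor of PC1/3, had 10.8 and 9.79 CPM in c-Jun-/- and 19.6 and 19.4 CPM in wild type, and fell (log2 fold change -0.91 ± 0.23, edgeR adjusted p = 0.00451). It overlaps Eras on the opposite strand. Mbtps1, the site-1 protease gene, rose by 0.49 ± 0.07 (edgeR adjusted p = 1.51e-06). It is a chromosome 8 gene, at -0.027 after centring. Pcsk6, which like Furin is known to cleave the Nodal precursor in the mouse embryo, did not pass at 0.64 ± 0.36 (edgeR adjusted p = 0.257). Scg5, the chaperone of PC2, had 11 and 2 counts in c-Jun-/- and 2 and 1 in wild type and was below the filter.

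Of 11 tested genes among the other carboxypeptidases, the second cyclase and the suppliers of copper, ascorbate and electrons for amidation, 1 rose and 1 fell (median -0.06). Aebp1, a secreted carboxypeptidase-like protein gene, had 21.1 and 18.9 CPM in c-Jun-/- and 6.92 and 8.21 CPM in wild type and rose by 1.40 ± 0.25 (edgeR adjusted p = 8.09e-05). Cpm, a membrane carboxypeptidase gene, had 45.0 and 41.1 CPM in c-Jun-/- and 65.3 and 75.7 CPM in wild type and fell (log2 fold change -0.71 ± 0.13, edgeR adjusted p = 9.89e-05). In TPM it had 27.9 and 38.1 in c-Jun-/- and 39.0 and 42.3 in wild type. The call of Cpm was lost with limma on log2 TPM. Qpctl, the Golgi-resident cyclase related to Qpct, was well detected at 16.9 and 19.6 TPM in c-Jun-/- and 16.4 and 18.2 TPM in wild type and did not pass (0.11 ± 0.20). Cpd, a carboxypeptidase gene of the trans-Golgi network, had 45.9 and 37.5 TPM in c-Jun-/- and 49.0 and 50.6 TPM in wild type and did not pass (-0.21 ± 0.08, edgeR adjusted p = 0.0766). The copper carriers Atp7a, Atox1 and Slc31a1 did not pass either.

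Granins and regulated secretion genes followed. Of 21 tested, 1 rose and 1 fell, and the median was 0.11. Cadps2, which primes dense-core vesicles, had 0.793 and 1.31 CPM in c-Jun-/- and 3.16 and 5.78 CPM in wild type, and fell (log2 fold change -2.11 ± 0.62, edgeR adjusted p = 0.016). Its call was lost with DESeq2 (adjusted p = 0.072) and with limma on log2 TPM with 1 or 0.1 added (adjusted p = 0.108 and 0.111). The call was also lost without c-Jun-/- replicate 2 (value -1.76) or wild-type replicate 3 (-1.60). Cadps2 stood between -2.48 and -1.13 over all alternatives. Unc13a primes synaptic vesicles and lies on chromosome 8. Its 0.53 ± 0.18 passed narrowly (edgeR adjusted p = 0.0491), and it was called in only 3 of 13 alternatives (0.0248 to 0.973). Chga, the chromogranin A gene, did not pass (0.22 ± 0.31), with 11.7 and 9.25 TPM in c-Jun-/- and 12.1 and 6.65 TPM in wild type. Vgf, the precursor of granin-like peptides, had 44.1 and 48.6 TPM in c-Jun-/- and 35.6 and 45.1 TPM in wild type and did not pass (0.18 ± 0.12).

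Among other peptide hormone precursors Trh was in restricted company. Of 49 such genes found, 23 had 0 counts in every library and 7 passed the filter. Of those 7, 3 rose, none fell, and the median was 0.18. Npy, the neuropeptide Y precursor, stood above Trh in every library at 2470 and 2615 TPM in c-Jun-/- and 2484 and 2517 TPM in wild type, and did not pass (0.06 ± 0.06, edgeR adjusted p = 0.578). The genotypes overlapped for Npy and not for Trh, and Npy stood 2.53 and 2.75 times as high as Trh in c-Jun-/- and 9.21 and 8.98 times in wild type. Trh took 23.3% and 22.1% of the summed TPM of the 50 precursors in c-Jun-/- and 8.38% and 8.42% in wild type. It ranked 2 among them in both c-Jun-/- libraries and 3 in both wild-type libraries, where Apela stood above it.

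The 3 precursors that rose were Penk, Apln and Apela. Penk, the proenkephalin gene, had 70 and 28 counts in c-Jun-/- and 1 and 0 in wild type, a ratio of summed counts of 92.3 (95% counting interval 16.2 to 3682, edgeR adjusted p = 7.39e-07). Penk overlaps A830012C17Rik on the opposite strand. Apln, the apelin precursor, had 35.2 and 35.1 TPM in c-Jun-/- and 12.6 and 18.8 TPM in wild type and rose by 1.20 ± 0.16 (edgeR adjusted p = 9.50e-07). Apela, which encodes another ligand of the apelin receptor, had 553 and 553 TPM in c-Jun-/- and 345 and 397 TPM in wild type. It rose by 0.61 ± 0.08 (edgeR adjusted p = 7.72e-07). Centring chromosome 8, where Apela lies, left 0.095 and ended the call (edgeR adjusted p = 0.51). Calca, the calcitonin precursor (0.18 ± 0.17), Nucb2 (0.02 ± 0.22) and Pomc (-0.93 ± 0.55) did not pass. Gal, the galanin precursor, singled out after its values were seen, was below the filter with 8 and 16 counts in c-Jun-/- and 0 and 1 in wild type.

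**Figure D4:**
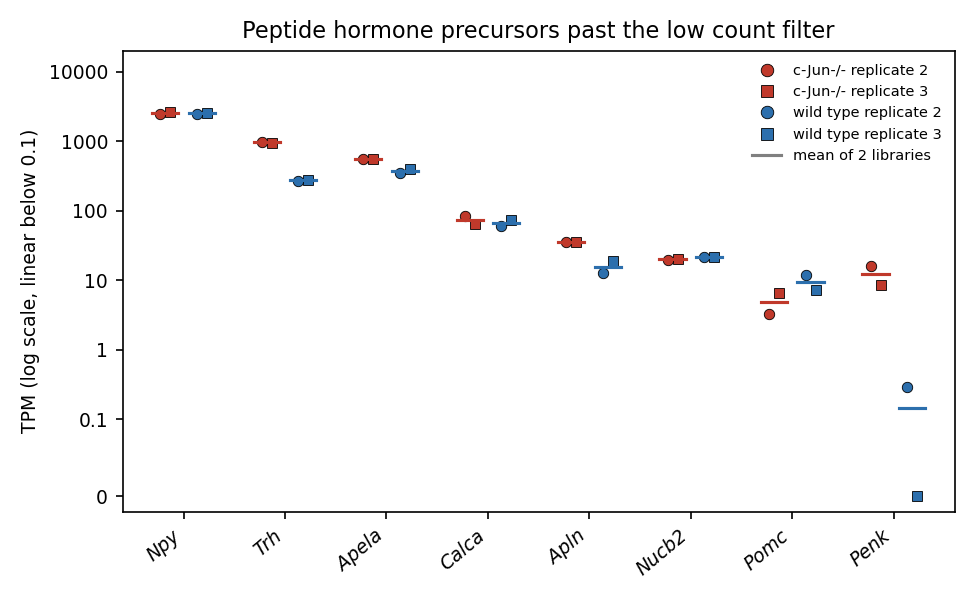
TPM by library of Trh and the 7 other peptide hormone precursors past the low count filter, on an axis that is logarithmic above 0.1, with c-Jun-/- left of wild type, circles for replicate 2, squares for replicate 3 and a bar for the mean. Npy leads in all 4 libraries at 2470 to 2615 TPM, Trh lies above Apela in c-Jun-/- and below it in wild type, and Penk is at 0.29 and 0 TPM in wild type.

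Enzymes known to break down TRH besides Trhde were expressed and were not called. Prep, a cytosolic prolyl endopeptidase that removes the amide of TRH, had 108 and 102 TPM in c-Jun-/- and 91.1 and 99.6 TPM in wild type (0.18 ± 0.09, edgeR adjusted p = 0.169). Pgpep1, the cytosolic pyroglutamyl peptidase gene on chromosome 8, had 13.01 and 12.95 TPM in c-Jun-/- and 10.8 and 9.97 TPM in wild type (0.37 ± 0.16, edgeR adjusted p = 0.132), and centring gave -0.14. Of 11 other tested peptide-degrading enzymes 2 rose and 2 fell (median 0.15). Mme, the neprilysin gene, had 30.3 and 27.2 CPM in c-Jun-/- and 12.5 and 12.7 CPM in wild type and rose by 1.20 ± 0.20 (edgeR adjusted p = 3.38e-05). Ece1, the endothelin-converting enzyme gene, rose by 0.45 ± 0.13 (edgeR adjusted p = 0.0114) on counts but not in TPM, where wild-type replicate 3 stood at 98.3 and the other 3 libraries at 17.9 to 27.3. The RSEM length of Ece1 was 963 bases in wild-type replicate 3 and 4160 to 4816 bases in the others. On counts Ece1 had 42.7 CPM in wild-type replicate 3 and 45.1 CPM in wild-type replicate 2. Its call was also lost without c-Jun-/- replicate 2 (edgeR adjusted p = 0.0634) or wild-type replicate 3 (0.0767), within 0.00335 to 0.678 over all alternatives. The aminopeptidase genes Npepps (-0.32 ± 0.07, edgeR adjusted p = 0.0012) and Erap1 (-0.37 ± 0.10, edgeR adjusted p = 0.00667) fell. Erap1 overlaps Cast on the other strand. Its call was lost with limma on log2 TPM and without wild-type replicate 2, where it stood at -0.21.

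The second TRH receptor of rodents, Trhr2, had 0 counts in every library, as Trhr did. Of 14 tested genes of the wider TRH and thyroid axis, Prep and Pgpep1 included, none rose and 2 fell (median -0.14). Thrb, the thyroid hormone receptor beta gene, had 3.49 and 1.74 CPM in c-Jun-/- and 7.12 and 7.84 CPM in wild type and fell (log2 fold change -1.46 ± 0.44, edgeR adjusted p = 0.0205). Its call was lost with DESeq2 (adjusted p = 0.068) and with limma on log2 TPM with 1 or 0.1 added (adjusted p = 0.136 and 0.162). The call was also lost without c-Jun-/- replicate 3 (value -1.10), wild-type replicate 2 (-1.54) or wild-type replicate 3 (-1.39). Thrb stood at -2.09 without c-Jun-/- replicate 2, and between -2.09 and -1.02 over all alternatives. Thra (-0.17 ± 0.13) and Creb1 (-0.16 ± 0.10) did not pass. The hypothalamic factors Sim1 and Pou3f2 had 4 counts or fewer in every library.

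Precursors that convertases such as Furin cut made up the last list. Of 27 tested, 3 rose and 8 fell, where 8.21% of all tested genes were higher and 7.32% lower, and the median was -0.19, against 0.0015 over all tested genes. Lefty1, an inhibitor of Nodal, had 707 and 669 CPM in c-Jun-/- and 1216.5 and 1233 CPM in wild type and fell (log2 fold change -0.83 ± 0.05, edgeR adjusted p = 5.17e-14). Bmp2 (-1.51 ± 0.14), Notch2 (-0.81 ± 0.08), Notch3 (-0.40 ± 0.06) and Cdh2 (-0.58 ± 0.08) also fell, with edgeR adjusted p between 8.08e-10 and 9.95e-06. Cdh1, the E-cadherin gene, rose by 0.40 ± 0.05 (edgeR adjusted p = 8.76e-08). It too is on chromosome 8, at -0.12 after centring. Nodal (-0.19 ± 0.09, edgeR adjusted p = 0.16), Tgfb1 (0.05 ± 0.11) and Bmp4 (0.33 ± 0.24) did not pass. Transcript levels say nothing of how far these precursors were cleaved.

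Over the 7 lists together, 95 genes were tested, 11 rose and 15 fell. With limma on log2(TPM + 1), which changes both the test and the scale, 4 rose and 5 fell. Aebp1, Apln, Cpm, Mme, Notch3, Npepps and Pcsk1n lost their calls with limma on log2 TPM and in no other alternative. All 7 lists were chosen with earlier results of these data known.

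**Figure D5:**
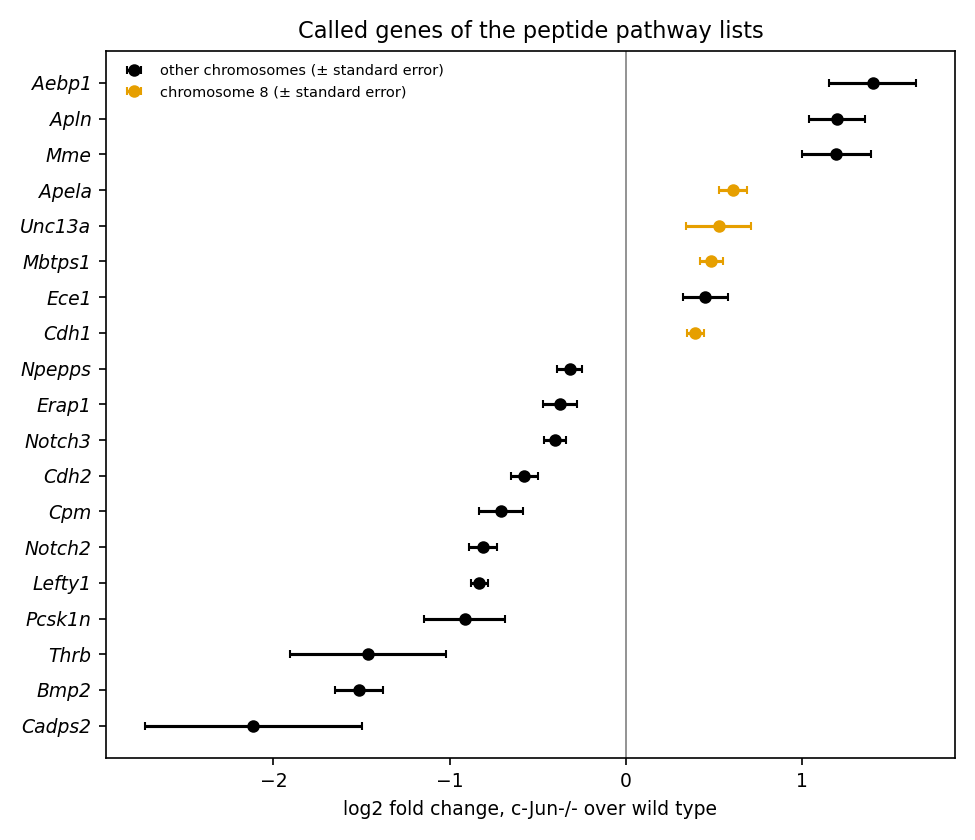
Log2 fold change of c-Jun-/- over wild type for the called genes of the 7 lists that the text names, with bars of 1 standard error, n = 2 per genotype and genes of chromosome 8 in orange. Penk is left out because wild type had 1 count, and Apela, Unc13a, Mbtps1 and Cdh1 form the chromosome 8 genes, between 0.40 and 0.61.

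Markers of the labelled cell type and of others moved between genotypes as well. Of the 8 primed epiblast markers, all tested, Pou5f1 rose (0.21 ± 0.06, edgeR adjusted p = 0.0116), and Sox2 (-1.14 ± 0.16), Otx2 (-1.18 ± 0.11), Fgf5 (-0.33 ± 0.07), Dnmt3b (-0.19 ± 0.05) and Pim2 (-0.18 ± 0.05) fell, with edgeR adjusted p between 1.91e-09 and 0.00792. These 6 calls held in 10 to 14 of 14 alternatives, and Nanog and T did not pass. The summed level of the 8 was 3432 to 3499 TPM in c-Jun-/- and 3707 to 3724 TPM in wild type. Of 6 tested definitive endoderm markers 5 fell and none rose (Sox17, Cxcr4, Gsc, Cer1 and Hhex), and their summed level was 281 to 308 TPM in c-Jun-/- and 562 to 581 TPM in wild type. The sixth, Foxa2, had 203 and 189 TPM in c-Jun-/- and 210 and 225 TPM in wild type and did not pass (-0.04 ± 0.08). Of 5 tested neuron and neuroendocrine markers, out of 10, Syp and Tubb3 rose and none fell. Tubb3 lies on chromosome 8 and stood at 2.13 ± 0.48, and at 1.62 after centring (edgeR adjusted p = 0.0231). The summed level of all 10 markers was 73.7 to 81.5 TPM in c-Jun-/- and 51.4 to 63.1 TPM in wild type, with Neurod1 and Rbfox3 at 3 counts or fewer in every library. Map2 entered this sum at 14.25 TPM in wild-type replicate 2 and 29.7 to 33.0 TPM in the other libraries. On counts Map2 had 15.9 to 19.8 CPM in all libraries (0.06 ± 0.21). The RSEM length of Map2 was 2417 bases in wild-type replicate 2 and 1046 to 1404 bases in the others. The summed level of 8 fibroblast markers, of which 1 rose and 2 fell among 7 tested, was 30.3 to 40.5 TPM in c-Jun-/- and 42.2 to 45.4 TPM in wild type. That of 6 extraembryonic markers, of which 1 fell among 2 tested, was 14.1 to 16.7 TPM in c-Jun-/- and 22.9 to 26.1 TPM in wild type, with Afp at 0. The part of other cell types in the difference in Trh was not tested, and in bulk RNA more cells with Trh and more Trh per cell cannot be told apart.

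The genes whose pattern over the 4 libraries was most like that of Trh were Kirrel2, Gstp1, Sprr2a3, H19 and Fetub. Likeness was the Euclidean distance in log2(TPM + 1), centred on each gene's mean over the 4 libraries, over genes averaging 20 TPM or more. With 2 genotypes such a distance amounts to a like fold change in TPM, which can differ from that on the count scale, and it is a description. Kirrel2, a nephrin-like adhesion gene, was nearest at 0.0959, with 55.0 and 56.9 TPM in c-Jun-/- and 14.0 and 15.1 TPM in wild type. On the count scale Kirrel2 had a log2 fold change of 1.496 ± 0.177, the lowest of the 5 genes, against 1.85 for Trh. Its RSEM lengths were 1556 and 1395 bases in c-Jun-/- and 2140 and 1837 bases in wild type. Gstp1, a glutathione transferase gene, was next at a distance of 0.246, with 284 and 259 TPM in c-Jun-/- and 86.5 and 94.9 TPM in wild type. H19, an imprinted noncoding RNA, lay at 0.324 and Fetub, the fetuin-B gene, at 0.384. Sprr2a3, at 0.278, has near-identical paralogs that compete for the same reads, so its values are uncertain, and Gstp1 likewise has close copies.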

How the data were processed

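RNA-seq covered 4 iEpiSC libraries, grouped by the genotype in the sample titles. Per the labels' protocols, libraries were made with an Illumina TruSeq RNA kit that is not stated to keep strand. Per the submitters' processing notes, RSEM and Bowtie2 were used with build mm10. Neither versions nor the annotation release were stated, and single-transcript lengths of Cpe and Qpct differ from GENCODE M21. The authors deposited, per library, the expected count of each gene (an estimated count, not scaled), TPM, and transcript length in bases per the file headers.

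Of 29267 genes, 28756 matched a symbol. Expected counts were rounded, filtered by edgeR's filterByExpr (minimum count 10, total 15), scaled by TMM, and fitted with the quasi-likelihood test (edgeR 4.0.16, R 4.3.3) without covariate, adjusted by Benjamini-Hochberg over 12598 genes. The standard error is the log2 fold change over the square root of F. CPM uses the same scaling. Intervals and the limit of 3 counts cover counting error only. The 2 libraries of a genotype differed by more than counting error (chi-square over its degrees of freedom 2.49 in c-Jun-/- and 2.53 in wild type) and were counted as 2 samples; they may still be repeat libraries of 1 culture. The fit was also run on simulated counts with the same dispersion for every gene and changes planted only in well-counted genes. That run says nothing of genes with few counts.

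Members, lists and rules were chosen with earlier results of these data known. Named genes were the members, called genes of each list (the 6 of smallest p where more passed), the 5 genes most like Trh and tested neighbours within 250 kb. Other list genes were named after their values were seen. Kiss1 and Gdf1 were not analysed here, and a few list and marker genes that enter the counts and sums are not reported by name. Alternatives were other scalings, filters and tests (DESeq2 1.42.0, limma 3.58.1 on log2 TPM with 1 or 0.1 added), the replicate number as a block, chromosome 8 left out or centred, and each library left out. Promoter windows are from RefSeq (GRCm38.p6).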

Additional observations from a re-analysis of the deposited data

How the results depend on the processing

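The log2 fold change of Trh stayed between 1.80 and 1.89 under all alternatives: 1.80 and 1.81 with limma on log2 TPM with 1 and 0.1 added, 1.81 to 1.89 with each library left out, and 1.85 with the replicate block. With limma on log2 TPM with 1 or 0.1 added, 250 or 224 genes were higher and 170 or 150 lower in c-Jun-/-, and in the 7 lists 4 or 3 rose and 5 or 5 fell. DESeq2 called 762 higher and 588 lower. Without chromosome 8 genes 668 were higher, and with them centred 651, and the lists held 7 that rose in each case. Leaving out each library gave 835 to 888 higher and 633 to 757 lower genes over all, and 10 to 12 that rose and 10 to 15 that fell in the lists. Direction changed for Mbtps1 (-0.027) and Cdh1 (-0.12) with chromosome 8 centred, where the offset itself takes away the chromosome's median. It also changed for Ece1 (-0.67 and -0.68) with limma on log2 TPM with 1 and 0.1 added. The RSEM length of Ece1 in wild-type replicate 3 was 963 bases, as given above, and the cause was not tested. Of the alternative values of named called genes, 237 kept their call and 49 lost it with the same direction. Deviations from the genotype mean hardly correlated between the libraries numbered 2 (0.022). This correlation cannot tell if libraries of the same number were made together. With the replicate block 1250 genes were higher and 1127 lower. With 2 libraries per genotype at these depths, only a large difference could have shown in genes of a few counts such as Pcsk1, Qpct and Trhde.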
